A study of Mus musculus with 6 samples.

Results

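Genes that mark the blood vessel lining of bone were followed in femur RNA after blood loss. The set holds 34 genes, taken by name from the 55421 genes of the count table, and all 34 passed the filter on low counts that left 18838 genes for testing. The genes were proposed with earlier results of these data known, so their values are given as a description of these libraries. The phlebotomy group is 3 femur libraries of C57BL/6 mice labelled WT, 12 weeks old, after phlebotomy (removal of blood). The control group is 3 femur libraries of the same strain, genotype and age labelled Control. The labels used here name neither the volume of blood removed, the time after removal nor the sex, and do not say whether each library came from 1 animal. P-values therefore measure the spread between these libraries, which may be technical. Total RNA was taken from femur fractions in which osteocytes, matrix-embedded bone cells, had been enriched.

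Endothelial cells line every vessel of bone and marrow. In long bones, type H capillaries with high Pecam1 and endomucin run near the growth plate and the inner bone surface and join the sinusoids of the marrow, wide and leaky vessels through which new blood cells enter the circulation. Sinusoidal endothelium carries scavenger receptors of the stabilin family, and ETS and SOX factors keep the endothelial identity of all these vessels. Bulk RNA cannot tell fewer cells of a type from less RNA per cell, which holds for every level below.

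The P columns of the count table were read as phlebotomy from the letter, which left the N columns for control, and libraries are named by their column numbers 1, 2 and 4. Gene counts summed to 14853290 to 15866385 in phlebotomy and 11219243 to 19015588 in control. A count of 3 equals 0.158 to 0.267 CPM, counts scaled to a common library total. Levels are CPM scaled by TMM factors, which correct for differences in library composition. Dmp1, a matrix protein of osteocytes, was at 11396, 22140 and 21206 CPM in phlebotomy 1, 2 and 4 and at 42867, 41093 and 18691 CPM in control 1, 2 and 4; it was abundant in every library. Phlebotomy 2 stood apart from the other phlebotomy libraries: it lay at -7.80 on the first principal component (41.8% of variance), against 54.9 and 40.2 in phlebotomy 1 and 4. Control 1, 2 and 4 lay at -51.4, -19.3 and -16.6. Control 1, which had the fewest gene counts (11219243), thus lay apart from the other controls. Phlebotomy 2 held 4288 counts on rows that name no mouse gene, against 441 in each other phlebotomy library and between 380 and 640 in the controls.

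Over the 34 endothelial genes the summed level was 1243, 1453 and 1172 CPM in phlebotomy 1, 2 and 4 and 1416, 1190 and 1398 CPM in control 1, 2 and 4, so the groups overlapped. The median log2 fold change (phlebotomy over control) was -0.075, with 22 genes below 0, against -0.0028 over all genes tested, of which 50.2% were below 0. None of the 34 passed a Benjamini-Hochberg adjusted p of 0.05 over all genes in edgeR's quasi-likelihood test, a threshold that 0.0159% of all genes passed. At an unadjusted p under 0.05 there was 1 higher gene, Clca3a1, and 1 lower gene, Rasip1, where 7.01% of all genes were higher and 9.42% lower. DESeq2 called Clca3a1 alone, higher, against 0.637% of the genes it gave an adjusted p, and none lower, against 1.68%. Limma-voom called 0 of all genes tested in either direction, so its lack of calls is not particular to the 34. Groups did not overlap, with phlebotomy above control, for Clca3a1 and Emcn, against 10.1% of all genes, and for none with phlebotomy below, against 11.2%. On the authors' deposited scaling Emcn overlapped, and Erg was lower in phlebotomy without overlap.

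**Figure D1:**
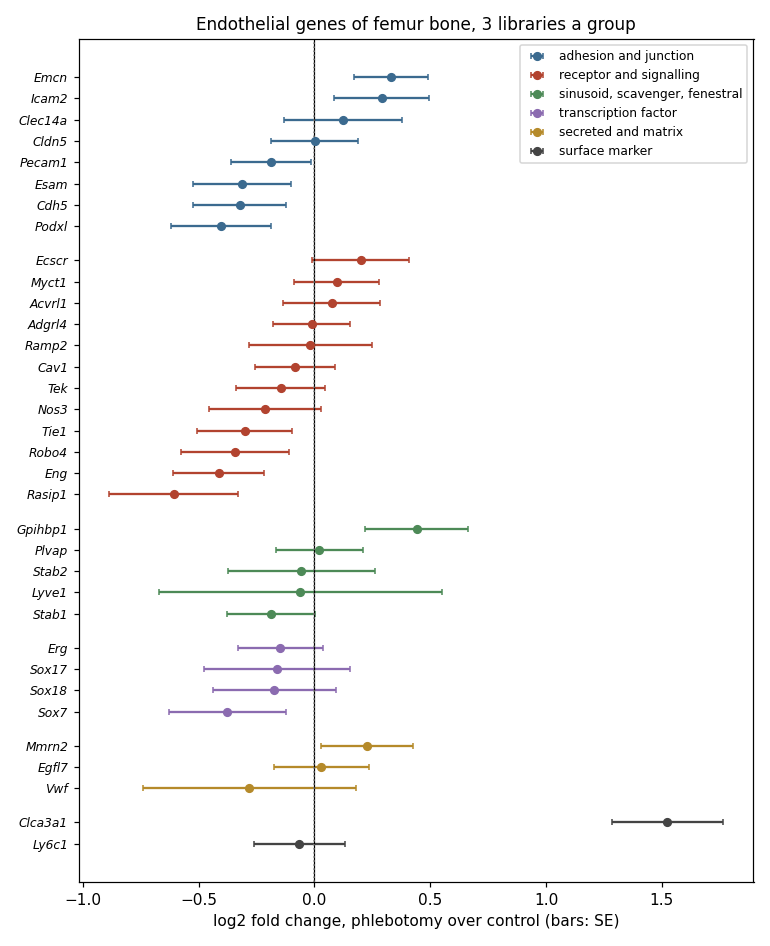
Log2 fold change of each of the 34 endothelial genes (x axis, phlebotomy over control, bars are SE from edgeR, 3 libraries a group), grouped by role on the y axis; the dotted line is the median of all genes tested. Clca3a1 sits at 1.52 and the other 33 genes lie between -0.61 and 0.44.

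Single libraries set the spread. Phlebotomy 4 was the lowest of the 6 libraries for 15 of the 34 genes, against 16.0% of all genes, and the highest for 0, against 15.6%. Phlebotomy 1 was the highest for 6 of the 34, against 25.3% of all genes. Control 1 was the highest for 12 of the 34, against 25.2% of all genes. Phlebotomy 2 was the highest for 8 of the 34, against 8.73% of all genes. It lay above both other phlebotomy libraries for 21 of the 34 (61.8%), against 36.2% of all genes. Without phlebotomy 2 the median log2 fold change of the 34 was -0.18, and edgeR called 1 gene higher and 2 lower, where that fit called 1.75% of all genes higher and 2.99% lower.

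**Figure D2:**
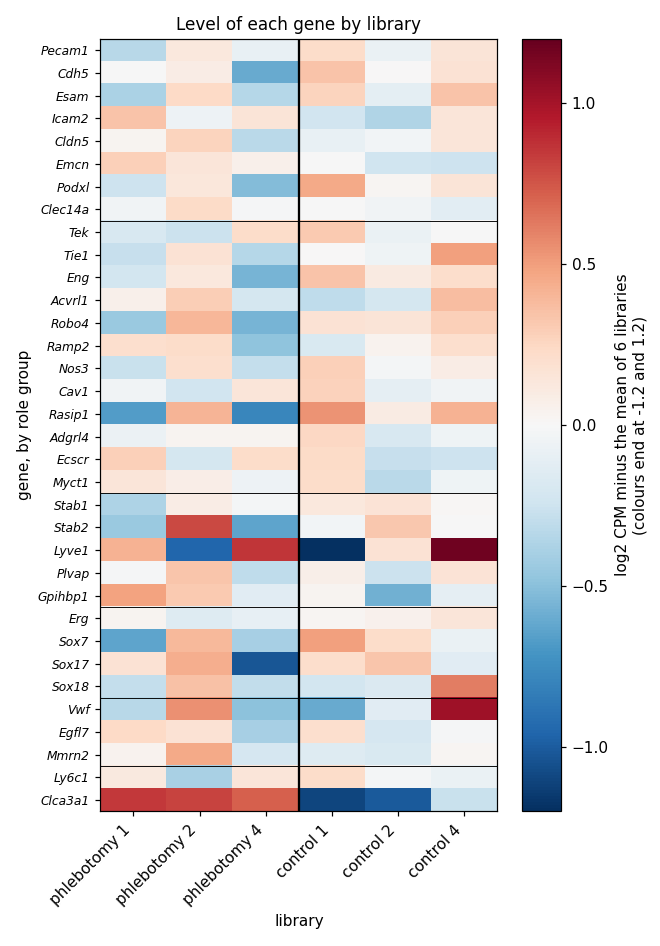
Level of each endothelial gene (rows, by role group) in each library (columns, phlebotomy left of the line and control right), as log2 CPM minus the mean of the 6 libraries, with colours ending at -1.2 and 1.2. Clca3a1 is high in all 3 phlebotomy libraries, and phlebotomy 4 is the lowest library for 15 of the 34 genes.

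Clca3a1, a member of the calcium-activated chloride channel regulator family found on vessel and lymphatic endothelium of mice, differed most. It lies on chromosome 3 at 144729677 to 144760977 (GRCm38, minus strand). It had 20.1, 19.5 and 18.3 CPM in phlebotomy 1, 2 and 4, against 5.20, 5.55 and 9.30 CPM in control 1, 2 and 4. Every phlebotomy library thus held about the same level, and control 4 was the nearest of the controls. The log2 fold change of Clca3a1 was 1.52 ± 0.24 (SE, n = 3 per group) with an edgeR adjusted p of 0.0650, just outside the threshold. The adjusted p passed at 0.0184 without phlebotomy 2 and 0.0136 without control 4 in edgeR and at 9.44e-06 in DESeq2; over all 20 alternatives it ran from 6.93e-06 to 0.614, and the log2 fold change from 1.36 to 1.81. Clca3a2, a close relative, shares 3.92% of the 126-base windows of the Clca3a1 transcript and held 20 counts in the 6 libraries, against 1223 for Clca3a1. An antisense gene, Gm34866, shares 4.36% of the exon bases of Clca3a1. Ly6c1, the other surface marker, a GPI-anchored protein of capillary endothelium, had 27.1, 19.1 and 27.7 CPM in phlebotomy 1, 2 and 4 and 29.2, 24.5 and 23.7 CPM in control 1, 2 and 4. Its relative Ly6c2, a monocyte marker, was at 298 to 347 CPM in phlebotomy and 174 to 313 CPM in control. The longest transcripts of Ly6c1 and Ly6c2 share identical runs of up to 124 bases and no identical window of 126 bases, the read length. That Ly6c1 transcript has 844 bases, against 1677 exon bases of the gene, and windows with mismatches were not counted. Whether Ly6c2 reads entered the Ly6c1 counts was therefore not tested.

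The start regions of Clca3a1, Emcn, Rasip1 and Robo4 are shown because Clca3a1 and Rasip1 had the highest and the lowest fold change of the 34, Emcn was the other gene without overlap, and Robo4 was called without phlebotomy 2. Each runs from 250 bases before to 50 bases after the transcription start (RefSeq, GRCm38.p6, 5′ to 3′ on the gene's strand), and capitals mark AGGAAG or its reverse complement CTTCCT, a core bound by ETS factors such as Erg. The windows lie at chr3:144760928-144761227 (minus strand), chr3:137340828-137341127 (plus), chr7:45627287-45627586 (plus) and chr9:37401722-37402021 (plus).
Clca3a1: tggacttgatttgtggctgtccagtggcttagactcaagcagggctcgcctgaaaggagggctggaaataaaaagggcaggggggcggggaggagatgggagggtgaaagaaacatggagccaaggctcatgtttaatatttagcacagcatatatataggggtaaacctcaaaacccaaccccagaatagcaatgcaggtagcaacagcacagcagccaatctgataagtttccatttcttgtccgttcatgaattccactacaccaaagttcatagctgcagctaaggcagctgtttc
Emcn: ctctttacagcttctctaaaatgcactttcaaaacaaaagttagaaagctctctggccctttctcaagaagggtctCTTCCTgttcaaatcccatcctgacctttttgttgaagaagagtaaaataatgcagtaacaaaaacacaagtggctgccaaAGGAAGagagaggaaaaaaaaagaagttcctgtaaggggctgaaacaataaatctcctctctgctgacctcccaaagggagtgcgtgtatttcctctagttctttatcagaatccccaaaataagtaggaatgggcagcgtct
Rasip1: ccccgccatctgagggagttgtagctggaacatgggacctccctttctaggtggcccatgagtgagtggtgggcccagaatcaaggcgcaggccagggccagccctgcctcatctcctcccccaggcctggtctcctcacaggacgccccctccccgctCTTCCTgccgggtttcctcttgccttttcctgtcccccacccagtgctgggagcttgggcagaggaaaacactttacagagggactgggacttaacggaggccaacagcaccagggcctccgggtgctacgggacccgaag
Robo4: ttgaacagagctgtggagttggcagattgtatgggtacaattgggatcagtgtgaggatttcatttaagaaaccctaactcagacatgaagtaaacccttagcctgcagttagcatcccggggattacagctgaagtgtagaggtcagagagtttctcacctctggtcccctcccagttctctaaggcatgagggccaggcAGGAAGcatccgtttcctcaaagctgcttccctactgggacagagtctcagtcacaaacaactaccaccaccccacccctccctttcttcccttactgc
Clca3a1 holds 0 matches, Emcn 2, and Rasip1 and Robo4 1 each. RefSeq promoters were found for 17 of the 34 genes, with 23 windows. On either strand, the ETS core stood in 60.9% of these windows, against 35.4% of all 32851 windows of the same length. The SOX core AACAAT stood in 13.04% of them, against 10.7% of all windows. The GATA core GATAAG, which Clca3a1 holds, stood in 17.4% of them, against 7.44% of all windows. A match is a run of letters and does not show binding.

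Among 8 adhesion and junction genes, none passed in edgeR or DESeq2, 0 had an unadjusted p under 0.05 in edgeR, and 4 were above 0. Emcn, the sialomucin endomucin of capillaries and sinusoids, had 163, 148 and 139.6 CPM in phlebotomy 1, 2 and 4 and 134, 113 and 112 CPM in control 1, 2 and 4 (log2 fold change 0.33 ± 0.16 SE, edgeR adjusted p 0.323). All phlebotomy libraries lay above all controls on this scaling. Pecam1, the adhesion protein CD31 that platelets and leukocytes also carry, had 135, 186 and 160 CPM in phlebotomy 1, 2 and 4 and 197, 161 and 189 CPM in control 1, 2 and 4. Cdh5, the cadherin of endothelial junctions, had 39.2, 41.8 and 25.9 CPM in phlebotomy 1, 2 and 4 and 49.98, 39.5 and 44.2 CPM in control 1, 2 and 4. Podxl, a sialomucin of the luminal surface, had 13.9, 18.2 and 11.5 CPM in phlebotomy 1, 2 and 4 and 22.7, 16.8 and 18.3 CPM in control 1, 2 and 4. For these 3 genes the groups overlapped, and the log2 fold changes were -0.19, -0.32 and -0.40. The junction proteins Esam and Cldn5, the integrin ligand Icam2 and the lectin-like Clec14a had log2 fold changes from -0.31 (Esam) to 0.29 (Icam2), and Cldn5 averaged 35.4 ± 7.19 CPM in phlebotomy and 35.3 ± 3.11 CPM in control (SD, n = 3 each).

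Of 12 receptors and signalling genes, 9 lay below 0 and none passed in edgeR or DESeq2, with 1, Rasip1, at an unadjusted p under 0.05 in edgeR. Rasip1, a Ras-interacting protein needed for vessel lumens, had 16.0, 33.7 and 14.8 CPM in phlebotomy 1, 2 and 4, against 37.0, 27.4 and 33.99 CPM in control 1, 2 and 4. Phlebotomy 1 and 4 lay below every control and phlebotomy 2 inside the control range. The log2 fold change was -0.61 ± 0.28 (SE, edgeR adjusted p 0.297), and -1.127 without phlebotomy 2 (edgeR adjusted p 0.0206). Of the exon bases of Rasip1, 42.9% lie in exons of other annotated genes, Izumo1 among them, and strand was not marked in these libraries. Robo4, a roundabout receptor that stabilises vessels, had 18.9, 33.9 and 17.5 CPM in phlebotomy 1, 2 and 4, against 29.1, 28.7 and 31.4 CPM in control 1, 2 and 4. Phlebotomy 1 and 4 again lay below every control, and phlebotomy 2 above every control. Its log2 fold change was -0.34 ± 0.23 (SE, edgeR adjusted p 0.479), and -0.74 without phlebotomy 2 (edgeR adjusted p 0.0457). Its exons are shared with no other annotated gene. Eng, a co-receptor for BMP9 and TGF-beta, had 28.4, 36.1 and 22.6 CPM in phlebotomy 1, 2 and 4 and 42.1, 35.6 and 38.3 CPM in control 1, 2 and 4 (log2 fold change -0.41 ± 0.20 SE, edgeR adjusted p 0.314). Acvrl1, the type I receptor ALK1 that works with Eng, had 40.5, 47.5 and 33.5 CPM in phlebotomy 1, 2 and 4 and 31.3, 33.6 and 50.3 CPM in control 1, 2 and 4, with a log2 fold change of 0.075.

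The angiopoietin receptor Tek averaged 34.4 ± 6.36 CPM in phlebotomy and 38.1 ± 5.73 CPM in control (SD, n = 3 each). Tie1, the partner of Tek, had 30.1, 41.0 and 28.6 CPM in phlebotomy 1, 2 and 4 and 36.4, 35.1 and 51.3 CPM in control 1, 2 and 4. Both overlapped between groups, at log2 fold changes of -0.15 and -0.30. Adgrl4, an adhesion G protein-coupled receptor, had 126, 135 and 136 CPM in phlebotomy 1, 2 and 4 and 157, 116 and 128 CPM in control 1, 2 and 4, and Cav1, the coat protein of caveolae, had 70.8, 62.4 and 81.1 CPM in phlebotomy and 88.5, 67.9 and 71.1 CPM in control. Their log2 fold changes were -0.012 and -0.085, and the groups overlapped for both. The endothelial nitric oxide synthase Nos3 averaged 5.95 ± 1.19 CPM in phlebotomy and 6.92 ± 0.764 CPM in control, and the adrenomedullin co-receptor subunit Ramp2 averaged 5.40 ± 1.36 CPM in phlebotomy and 5.46 ± 0.722 CPM in control (SD, n = 3 each). Exons of other annotated genes cover 32.3% of the Nos3 exon bases and 33.4% of those of Ramp2. Ecscr and Myct1, membrane proteins of endothelium, had log2 fold changes of 0.20 and 0.096.

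Of 5 sinusoid, scavenger and fenestral genes, none passed in edgeR or DESeq2, which gave Lyve1 no adjusted p, 0 had an unadjusted p under 0.05 in edgeR, and 2 were above 0. Stab2, a hyaluronan scavenger receptor of sinusoids, had 13.2, 30.9 and 11.6 CPM in phlebotomy 1, 2 and 4 and 17.5, 22.5 and 17.8 CPM in control 1, 2 and 4. Phlebotomy libraries spanned the whole control range and more, with phlebotomy 2 highest of the 6. The log2 fold change was -0.056 ± 0.32 (SE), and -0.68 without phlebotomy 2 (edgeR adjusted p 0.0788). Stab1, its relative on sinusoids and macrophages, had 15.8, 21.7 and 20.1 CPM in phlebotomy 1, 2 and 4 and 22.2, 22.8 and 20.5 CPM in control 1, 2 and 4. Plvap, which forms the diaphragms of fenestrae and caveolae, had 120.3, 152 and 98.0 CPM in phlebotomy 1, 2 and 4 and 128, 102 and 136 CPM in control 1, 2 and 4. Its level was near even between groups, at a log2 fold change of 0.022 ± 0.19 (SE). Gpihbp1, the capillary anchor of lipoprotein lipase, had 25.6, 22.7 and 16.6 CPM in phlebotomy 1, 2 and 4 and 18.8, 12.2 and 17.0 CPM in control 1, 2 and 4 (log2 fold change 0.44 ± 0.22 SE, edgeR adjusted p 0.338). Phlebotomy 4 overlapped the controls. Lyve1, a hyaluronan receptor of lymphatic and some sinusoidal endothelium, held 73 counts in all, at 0.324 to 1.133 CPM in phlebotomy and 0.196 to 1.41 CPM in control, too few to order the groups.

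**Figure D3:**
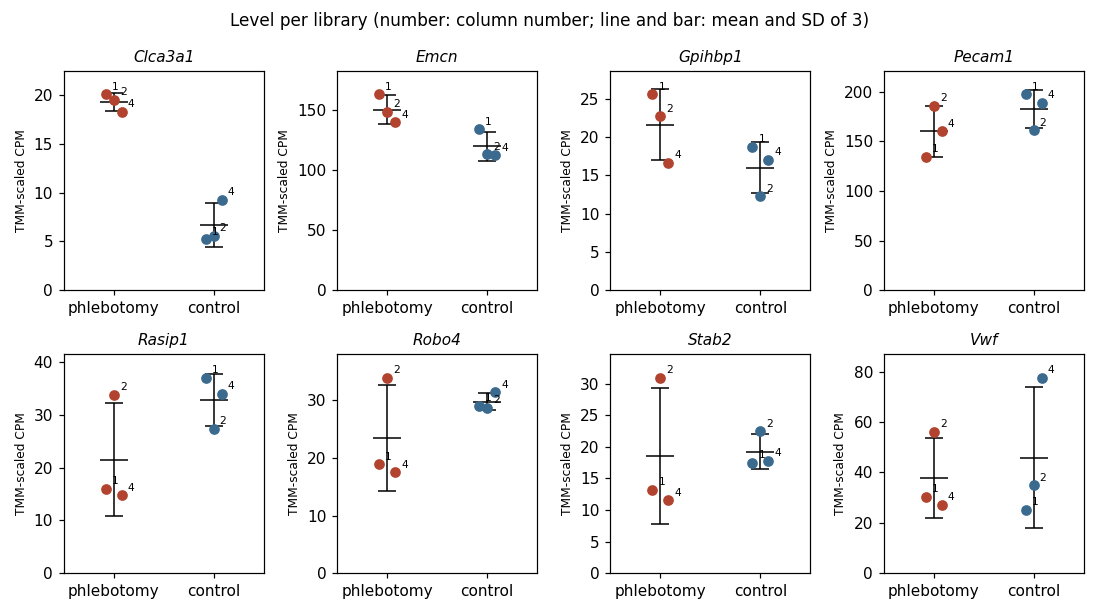
TMM-scaled CPM (y axes) of 8 endothelial genes in each library (points, with the column number), phlebotomy left and control right; lines and bars are mean and SD of 3 libraries. Clca3a1 separates the groups at 18.3 to 20.1 CPM in phlebotomy against 5.20 to 9.30 CPM in control, while Rasip1, Robo4 and Stab2 have phlebotomy 2 apart from phlebotomy 1 and 4.

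All 4 transcription factors lay below 0, and none passed in edgeR or DESeq2 or had an unadjusted p under 0.05 in edgeR. Sox7, a SoxF factor of vessel specification, had 19.03, 38.6 and 22.3 CPM in phlebotomy 1, 2 and 4 and 41.4, 34.4 and 27.9 CPM in control 1, 2 and 4 (log2 fold change -0.38 ± 0.25 SE, edgeR adjusted p 0.467). Sox18, a SoxF factor of vessels and lymphatics, had 9.72, 15.2 and 9.69 CPM in phlebotomy 1, 2 and 4 and 10.2, 10.5 and 18.2 CPM in control 1, 2 and 4. Sox17, the SoxF factor of arteries, averaged 7.23 ± 3.26 CPM in phlebotomy and 8.09 ± 1.32 CPM in control (SD, n = 3 each). In phlebotomy 2 each SoxF gene lay above both other phlebotomy libraries. Erg, the ETS factor that maintains endothelial identity, had 17.2, 15.2 and 15.8 CPM in phlebotomy 1, 2 and 4 and 17.2, 17.5 and 18.7 CPM in control 1, 2 and 4 (log2 fold change -0.15 ± 0.18 SE, edgeR adjusted p 0.710).

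Of the 3 secreted genes, none passed in edgeR or DESeq2 or had an unadjusted p under 0.05 in edgeR. Vwf, the von Willebrand factor stored by endothelium and megakaryocytes, had 30.4, 56.1 and 27.2 CPM in phlebotomy 1, 2 and 4 and 25.2, 34.9 and 77.6 CPM in control 1, 2 and 4. It was highest in control 4 and next in phlebotomy 2. The megakaryocyte and platelet list, of which 11 of 12 genes were tested, was highest in the same libraries. Its summed level was 999.6 CPM in phlebotomy 1, 1423 in phlebotomy 2 and 948 in phlebotomy 4, against 938, 973 and 1722 CPM in control 1, 2 and 4, and none of its markers was at 0. The list's median log2 fold change was -0.20, and 0.41 without control 4. The part of megakaryocyte RNA in the Vwf level was not tested. Egfl7, a secreted angiogenic factor and host of a microRNA, had 33.8, 32.3 and 21.7 CPM in phlebotomy 1, 2 and 4 and 32.9, 24.9 and 28.4 CPM in control 1, 2 and 4. Mmrn2, an endothelial matrix protein that binds Clec14a, had 28.3, 37.6 and 23.9 CPM in phlebotomy 1, 2 and 4 and 24.6, 24.2 and 27.9 CPM in control 1, 2 and 4. Their log2 fold changes were 0.030 and 0.23.

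Levels per exon length, the union of all annotated exons of a gene, order the genes among themselves. The order depends on the length taken: Ly6c1 has 1677 exon bases but a longest transcript of 844 bases. Plvap stood first at 62.1 CPM per kilobase in phlebotomy and 61.2 in control, and Pecam1, Adgrl4, Cldn5, Emcn and Cav1 followed at 20.7 to 28.8 in phlebotomy and 22.02 to 29.3 in control. Cdh5 stood at 8.47 CPM per kilobase in phlebotomy and 10.6 in control, Stab1 at 1.87 in phlebotomy and 2.12 in control, and Stab2 at 2.12 in phlebotomy and 2.20 in control. Lyve1 was last at 0.262 CPM per kilobase in phlebotomy and 0.264 in control.

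Other endothelial genes, a list of 40 names of which 39 were tested, had a median log2 fold change of -0.076, close to that of the 34. None passed in edgeR, nor in DESeq2 among those it gave an adjusted p. At an unadjusted p under 0.05 in edgeR, 2 were higher and 5 lower, against 7.01% and 9.42% of all genes. Without phlebotomy 2, edgeR called 4 lower (Notch4, Klf2, Flt4 and Thbd), against 2.99% of all genes. The smallest p belonged to Notch4, an endothelial Notch receptor, with 6.80, 10.4 and 6.80 CPM in phlebotomy 1, 2 and 4 and 14.4, 12.0 and 14.4 CPM in control 1, 2 and 4 (log2 fold change -0.77 ± 0.23 SE, edgeR adjusted p 0.179). Klf2, the flow-responsive factor, and Thbd, the anticoagulant receptor thrombomodulin, had log2 fold changes of -0.64 and -0.57 (edgeR adjusted p 0.201 each). The VEGF receptors Kdr and Flt4 had log2 fold changes of -0.27 and -0.60 (edgeR adjusted p 0.554 and 0.244), and both overlapped between groups. Tal1, a factor of blood and endothelial precursors that erythroid cells also express, was at 15.3, 15.5 and 11.8 CPM in phlebotomy 1, 2 and 4 and 6.19, 8.65 and 11.8 CPM in control 1, 2 and 4.

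Lists for single vessel types were set beside the 34 genes. Of 12 arterial and type H genes, 0 passed in edgeR and 1, the Notch ligand Jag2, was lower in DESeq2, with 2 lower at an unadjusted p under 0.05 in edgeR. Jag2 had 11.6, 10.3 and 7.74 CPM in phlebotomy 1, 2 and 4 and 19.9, 15.2 and 18.3 CPM in control 1, 2 and 4 (log2 fold change -0.85 ± 0.22 SE, edgeR adjusted p 0.148). Of 12 sinusoidal genes, 0 passed in edgeR and 1, the metalloproteinase Adamts5, was lower in DESeq2, again with 2 lower at an unadjusted p under 0.05 in edgeR. Adamts5 had 30.8, 34.6 and 30.8 CPM in phlebotomy 1, 2 and 4 and 57.7, 48.0 and 49.5 CPM in control 1, 2 and 4. Both genes are also expressed outside endothelium. Among all genes, 9.42% had phlebotomy lower with an unadjusted edgeR p below 0.05. DESeq2 called 1.68% lower among all genes it gave an adjusted p. The median log2 fold change was -0.071 over the arterial and type H genes and -0.13 over the sinusoidal genes. These lists share genes with the list of other endothelial genes: Gja4, Bmx and Sema3g from the arterial and type H list, and Flt4 and Tfpi from the sinusoidal list. Flt4 was 1 of the 2 lower sinusoidal genes and is counted in both lists. Vcam1 and Mrc1 of the sinusoidal list stand in the macrophage list too. Vcam1 alone was at 345 to 494 CPM in phlebotomy, where the sinusoidal list summed to 1043 to 1219 CPM. The part of macrophage RNA in the sinusoidal list was not tested. Of 6 lymphatic genes, Ccl21a held 0 counts, and the summed level was 168, 270.2 and 217 CPM in phlebotomy 1, 2 and 4 and 365, 315 and 234 CPM in control 1, 2 and 4. Most of that sum was Pdpn, a membrane glycoprotein that osteocytes also carry and that stands in the osteocyte list too, at 118 to 197 CPM in phlebotomy and 147 to 309 CPM in control. Prox1, the lymphatic master factor, had 0.584 to 1.57 CPM in phlebotomy and 0.736 to 1.90 CPM in control. The other 3 genes, Mmrn1, Foxc2 and Reln, had 8.11 to 40.7 CPM in phlebotomy and 10.8 to 60.2 CPM in control. Mmrn1 was highest in control 4 (60.2 CPM) and next in phlebotomy 2 (40.7 CPM), as was the megakaryocyte and platelet list. The part of megakaryocyte RNA in the Mmrn1 level was not tested. None of the 5 tested genes passed in edgeR. Only 1, Pdpn, had an unadjusted p under 0.05, with phlebotomy lower, against 9.42% of all genes. No lymphatic gene passed in DESeq2, which gave Prox1 no adjusted p.

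Among 11 tested angiogenic ligands 10 lay below 0 (median log2 fold change -0.21), with 0 called in edgeR, 5 lower at an unadjusted p under 0.05 and 3 lower in DESeq2. Slit3, a ligand of the Robo receptors that osteoblast-lineage cells can secrete, had 47.7, 72.9 and 59.5 CPM in phlebotomy 1, 2 and 4 and 129.6, 104 and 92.1 CPM in control 1, 2 and 4 (log2 fold change -0.85 ± 0.19 SE, edgeR adjusted p 0.139). Slit2, a like ligand, had a log2 fold change of -0.69 and Vegfa, the main angiogenic growth factor, of -0.86 (edgeR adjusted p 0.160 and 0.191). Osteocyte markers stood at a summed level of 14036 to 25286 CPM in phlebotomy and 23208 to 49284 CPM in control, with 0 of 11 called in edgeR, 7 lower at an unadjusted p under 0.05 and 2 lower in DESeq2. Most of that sum was Dmp1, at 11396 to 22140 CPM in phlebotomy and 18691 to 42867 CPM in control. The part of osteocyte RNA in the ligand levels was not tested. Mural genes, markers of pericytes and smooth muscle around vessels, had a median log2 fold change of -0.19 over 10 tested genes. EdgeR called 0 of them, with 3 lower at an unadjusted p under 0.05, and 2 were lower in DESeq2. Over all genes, 9.42% were lower at that p in edgeR, and DESeq2 called 1.68% lower of those it gave an adjusted p. Cspg4, the pericyte proteoglycan NG2 that bone-forming cells also carry, had 74.3, 124 and 128 CPM in phlebotomy 1, 2 and 4 and 331, 267 and 175 CPM in control 1, 2 and 4 (log2 fold change -1.24 ± 0.25 SE, edgeR adjusted p 0.139).

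**Figure D4:**
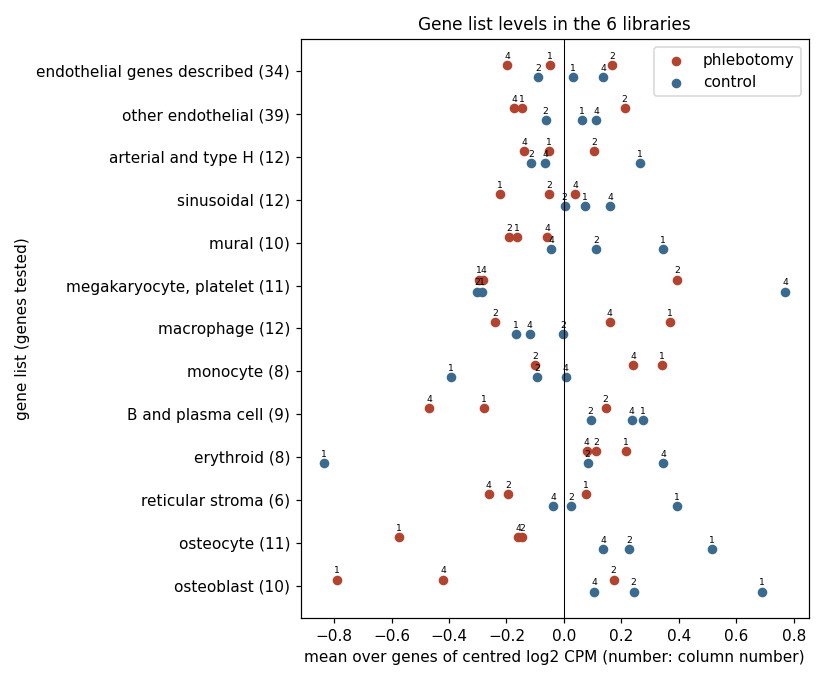
Mean over the genes of each list (y axis, number of genes tested) of log2 CPM centred on the mean of the 6 libraries (x axis); points are libraries with their column number, phlebotomy in red and control in blue. The 34 endothelial genes span -0.20 to 0.17 in phlebotomy and -0.090 to 0.14 in control, while osteocyte markers span -0.57 to -0.15 in phlebotomy and 0.14 to 0.52 in control.

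The centred log2 level of the 34 endothelial genes was -0.050, 0.17 and -0.20 in phlebotomy 1, 2 and 4 and 0.033, -0.090 and 0.14 in control 1, 2 and 4. Macrophage markers, a list that holds none of the 34 genes, lay at 0.37, -0.24 and 0.16 in phlebotomy 1, 2 and 4 and -0.17, -0.0042 and -0.12 in control 1, 2 and 4. Erythroid markers lay at 0.079 to 0.22 in phlebotomy and -0.84 to 0.35 in control. Across the lists for macrophage, monocyte, B and plasma cell, osteoblast, erythroid, muscle and reticular stromal cells, edgeR called 0 genes. At an unadjusted p under 0.05 in edgeR, 3 of 8 monocyte genes, 2 of 8 erythroid genes and 2 of 4 muscle genes were higher, and 2 of 12 macrophage genes were higher and 2 lower. At the same p, 3 of 9 B and plasma cell genes, 5 of 10 osteoblast genes and 1 of 6 reticular stromal genes were lower. Over all genes, 7.01% were higher and 9.42% lower at that p. DESeq2 called 1, 2 and 1 genes lower in the last 3 lists, against 1.68% of all genes it gave an adjusted p. It called none in the monocyte and erythroid lists, none of the macrophage genes to which it gave an adjusted p, and it gave no muscle gene an adjusted p.

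Fold changes of the endothelial genes were set against base composition. Across the 34 genes, which share libraries and depth and are not replicates, the log2 fold change had a Spearman's rho of -0.358 with GC content and -0.291 with exon length, against -0.230 and -0.227 over 18822 genes. Within libraries the centred level had a rho with GC content of -0.326 in phlebotomy 1, 0.404 in phlebotomy 2 and -0.570 in phlebotomy 4, against -0.0539, 0.179 and 0.602 in control 1, 2 and 4. The 17 genes of highest GC content (53.5% to 63.6%), Rasip1 at the top, had fold changes with a log2 median of -0.17, of which 10 lay below 0. The other 17 (40.7% to 52.6%), Emcn at the bottom, had a median of -0.065, with 12 below 0, so the medians and the counts run in opposite directions. With the trend on GC content and length removed from each library, the median was 0.091 for the genes of highest GC content and -0.087 for the other 17. Rasip1 then had a log2 fold change of -0.42 (limma adjusted p 0.398), Robo4 of -0.21 (limma adjusted p 0.621) and Clca3a1 of 1.49 (limma adjusted p 0.152).

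**Figure D5:**
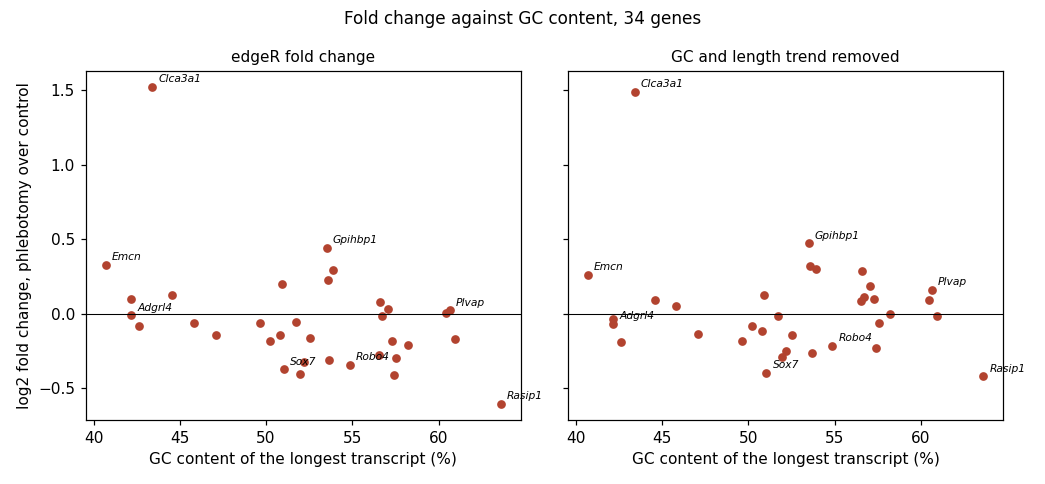
Log2 fold change of each endothelial gene (y axes) against the GC content of its longest transcript (x axes), as fitted by edgeR (left) and after removal of the GC and length trend (right). Clca3a1 stays at 1.52 and 1.49, and Rasip1 sits at -0.61 and -0.42.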

How the data were processed

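Deposited gene counts of 6 femur libraries (3 phlebotomy, 3 control) were analysed. The authors' deposited count table holds raw whole-number counts per gene, and their second table holds CPM signal scaled by TMM, per the file headers, used here only as an alternative scale. Per the submitters' processing notes, the tools named are limma, edgeR, DESeq2 and STAR (2.5.2a and 2.7.3a), and the builds GRCm38.p3 and mm10, with no role given. Which program counted reads, and with which strand setting, is not given in the sources used here. Per the labels, libraries were made from total RNA with Nextera XT, which marks no strand. Rows that name no mouse gene (0.00278% to 0.0284% of counts) were left out of library sizes and tests.

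Counts were tested with edgeR 4.0.16 (robust quasi-likelihood, filterByExpr with a minimum count of 10, TMM, Benjamini-Hochberg over 18838 genes, threshold 0.05) in R 4.3.3. The SE was taken as the log2 fold change divided by the square root of F. DESeq2 1.42.0, limma 3.58.1, other scalings and filters, and leaving out each library were alternatives. The list level is the mean of log2 CPM (prior count 2) centred on 6 libraries. Values per library were given for those of the 34 genes whose groups did not overlap, and for the 3 smallest p-values and the 2 highest levels of each role group. From each other list the rule allowed up to 4 genes by smallest p. Fewer were named from most lists and none from some, and several named genes have a fold change or range only. The rule also named Kdr, Flt4, Ly6c2, Clca3a2, Dmp1 and Erfe, of which Erfe stands in no list used here and is not reported. Acvrl1 and Robo4 were added after their values were seen. The 34 genes and all lists were chosen with earlier results of these data known. Column numbers 1, 2 and 4 differ from the sample titles' 1 to 3. Promoter windows came from RefSeq (GRCm38.p6). A planned comparison of protein sequences was not made. The longest transcript of each gene was compared instead, over 126 bases.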

Additional observations from a re-analysis of the deposited data

Results flagged for a closer look

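Phlebotomy 2 held 4288 counts on rows that name no mouse gene, a signal outside the main measurement, against 441 counts in phlebotomy 1, 441 in phlebotomy 4, and 380, 640 and 547 in control 1, 2 and 4. These rows entered no comparison. Phlebotomy 2 was also the library whose removal brought Rasip1 and Robo4 past the threshold, and the link between these facts was not tested.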

How the results depend on the processing

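Of 679 values of the 34 genes under 20 alternatives, 666 moved by less than the replicate spread and 13 by more, and 16 genes kept their sign in all of them. The number of genes called higher was 3, against 166 with no filter, 6 over the authors' filtered genes, 78 with DESeq2, 0 with limma-voom and 0 to 356 leaving out 1 library. The number called lower was 0, against 411 with no filter, 14 over the authors' filtered genes, 206 with DESeq2 and 0 to 607 leaving out 1 library. Of the 34 genes, 1 (Clca3a1) was called higher with upper-quartile factors, with no filter, over the authors' filtered genes and with DESeq2, and leaving out 1 library gave 0 to 1 higher and 0 to 2 lower. Leaving out 1 library moved the median log2 fold change to between -0.27 and 0.0024 for adhesion genes, -0.19 and 0.16 for sinusoid genes, -0.47 and -0.10 for transcription factors, -0.22 and 0.0021 for the sinusoidal list, -0.53 and -0.064 for lymphatic, -0.53 and 0.41 for megakaryocyte and -0.85 and -0.45 for osteocyte markers. With library totals only, the median was 0.010 for the sinusoidal list and -0.075 for angiogenic ligands, a scaling that moved the median of all genes to 0.13. It was -0.039 for mural genes with the GC and length trend removed, and 1.02 for muscle genes at a minimum count of 50. Same-numbered libraries correlated at -0.110, -0.108 and -0.0616 in their deviations from the group mean, and no library correlated best with its own number. With 3 libraries a group, these deviations constrain each other, so the values cannot decide whether the numbers pair libraries. The replicate block called 3 genes higher and 0 lower, with the mural median -0.039 and 1 gene higher when the GC and length trend was also removed. The causes of these shifts were not tested. Depth limits Lyve1, with 73 counts in all.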
